A study of Drosophila melanogaster with 34 samples.

Results

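Transposon accessibility was compared between ovarian somatic cells (OSC) depleted of the linker histone H1 and control cells, using every transposon consensus sequence of the ATAC-seq table: 96 that passed a filter on low values and 33 that it left out. OSC are a cultured Drosophila melanogaster line of somatic follicle-type cells without germ cells, in which nuclear Piwi silences transposons. Of the 34 samples of the series, 4 belonged to the comparison: 2 labelled as control, with siRNA against EGFP, and 2 labelled as H1 knockdown (H1-KD), with siRNA against H1. No other allele or agent was given, and the cells of both groups were grown at 26 degrees and transfected by nucleofection. A further 6 ATAC samples carried siRNA against other silencing factors, with 2 samples each: Piwi (Piwi-KD), HP1a, a heterochromatin protein (HP1a-KD), and Mael (Maelstrom), which acts with Piwi in transcriptional silencing (Mael-KD). The table held 1 column for each condition, although the labels give 2 replicates. No spread between replicates could be measured, and no p-value is given for any difference. Host genes are not in the tables, so neither the cell type nor the depletion of H1 was checked by expression here.

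In ATAC-seq, the transposase Tn5 cuts DNA that is not packed tightly and joins sequencing adapters to the ends, so reads gather where chromatin is open. Linker histone H1 binds the nucleosome where DNA enters and leaves it and favours compact chromatin. In OSC, Piwi is guided by piRNAs, small RNAs that match transposons, and leads to silencing of nascent transposon transcripts together with the histone mark H3K9me3 and its reader HP1a. Many of its targets in these cells are LTR retrotransposons, which copy themselves through an RNA and are flanked by long terminal repeats. Non-LTR retrotransposons lack these repeats, and DNA transposons move without an RNA copy.

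Each consensus collects the reads of copies scattered over the genome, so no coordinates are given. How reads shared by similar families were assigned is not stated in the labels or notes used here, and entries with near relatives in the table (the Stalker, gypsy and Doc entries, for example) are uncertain. Gypsy2 and GYPSY2 are separate entries of the table with different values. Levels are given in RPKM, reads per kilobase of consensus for every 1000000 reads in the library. A change is a log2 difference between knockdown and control after 5.80 RPKM, 0.1 of the median of the nonzero ATAC values, was added to both, which understates changes of low transposons. Transposons were called higher or lower at 1.5-fold (0.58 on the log2 scale), a rule of size and not a test. The 25% of transposons with the lowest mean over the 5 ATAC columns were left out. Intervals are exact (Clopper-Pearson) 95% intervals on the ratio of reads without the added constant. They concern counting error only and take each read as independent. Amplified reads that carry no molecular identifier are not independent, so the intervals can be too narrow even for counting error.

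Read totals recovered from the values were 3381967 for the control, 4982164 for H1-KD and 4106936 to 5674137 for the other knockdowns. Kept transposons held 25 to 116601 reads in the control, with a median of 1379, and the median width of their intervals on the log2 scale was 0.20. Of the 33 transposons left out, 31 had 4 to 480 recovered control reads, and log2 changes of the 33 lay between -0.59 and 0.33. The other 2 were TLD1, whose reads were not recovered and which was lower by 1.5-fold at -0.59, and TLD3, listed at 0 in every ATAC column. The gypsy-group element TIRANT was among the 31, with 4 reads in each of control and H1-KD.

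After H1 knockdown few transposon families were more accessible by this rule, all of them LTR retrotransposons, and most others differed little from their control level. Of the 96 transposons, 12 (12.5%) were at least 1.5-fold higher in H1-KD and 1 (1.04%) at least 1.5-fold lower, while 83 were neither. The counting intervals of all 12 lay above 0, and those of 10 lay wholly above 1.5-fold. The 12 were picked for rising in these same columns, and 67 of the 96 intervals excluded 0 in one direction or the other. An interval clear of 0 thus does not set the 12 apart. The median change over the 96 was -0.08, with quartiles at -0.22 and 0.16, and 69 transposons changed by less than 0.32 on the log2 scale in either direction. A change above 0 was found for 36 of the 96 (37.5%) and below 0 for 60, but this split depends on scaling: relative to reads outside the transposons it was 47 and 49.

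**Figure D1:**
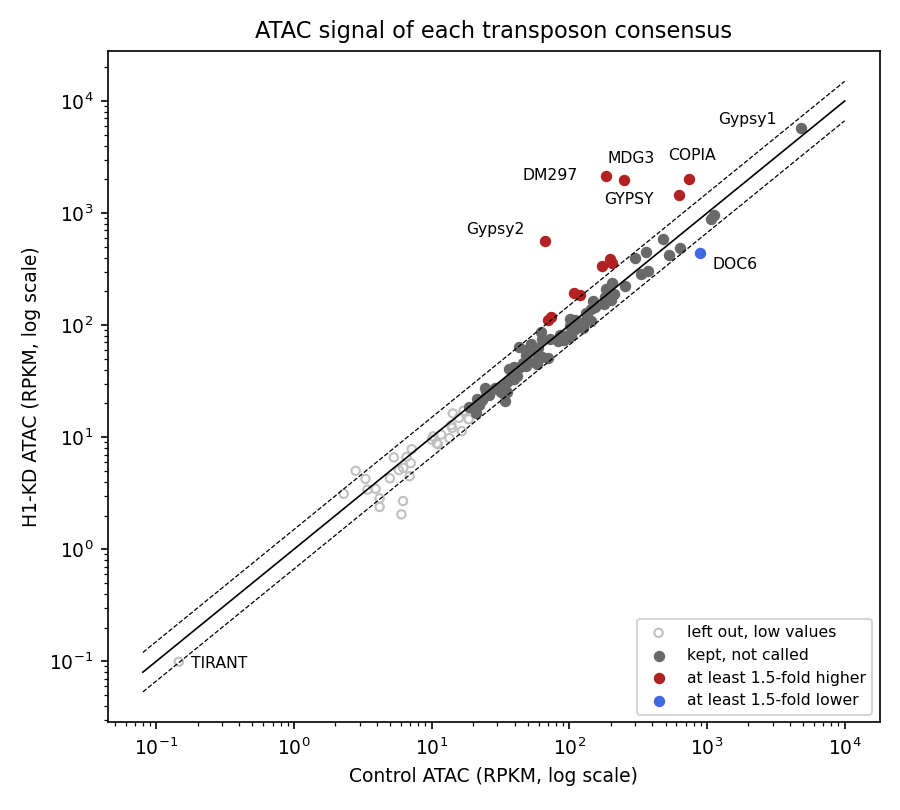
ATAC level of each transposon consensus in control (x axis) and H1-KD (y axis), in RPKM on log scales. Each transposon has 1 point, except TLD3, which is at 0. Hollow points were left out for low values, and a few of them lie past the dashed lines. The solid line marks equal levels and the dashed lines 1.5-fold differences. Of the kept transposons, 12 lie above the upper line, and DOC6 and TLD2 lie under the lower. TLD2 is not called once 5.80 RPKM is added.

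The 3 largest differences belonged to DM297, Gypsy2 and MDG3. DM297, an LTR element of the gypsy group and a Piwi target in OSC, stood at 185 RPKM in the control and 2146 in H1-KD, a log2 change of 3.49 (interval 3.49 to 3.58). Gypsy2, also of the gypsy group, stood at 67.0 RPKM in the control and 569 in H1-KD, a log2 change of 2.98 (interval 3.01 to 3.16). MDG3, an LTR element that gives the mdg3 group its name, stood at 250 RPKM in the control and 1979 in H1-KD, a log2 change of 2.95. These 3 stood apart from the rest, since the fourth, COPIA, changed by 1.44.

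COPIA, the founding member of the copia group, stood at 738 RPKM in the control and 2017 in H1-KD. GYPSY, the env-bearing element that gives the gypsy group its name, stood at 630 RPKM in the control and 1437 in H1-KD, a log2 change of 1.18 (interval 1.16 to 1.22). In RPKM of consensus, COPIA and GYPSY were thus high already in the control. Relative to ChIP input (chromatin DNA without precipitation) they were not, at 0.816 and 0.640 against a median of 1.16 over the 96. With the 3 above, COPIA and GYPSY made up the 5 transposons at least 2-fold higher.

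Of the remaining 7, MDG1, the LTR element after which the mdg1 group is named, stood at 198 RPKM in the control and 392 in H1-KD, a log2 change of 0.97. QUASIMODO, of the gypsy group, stood at 172 and 339 RPKM, a log2 change of 0.96. The last 5 were closer to the threshold: HMSBEAGLE of the gypsy group changed by 0.80 on the log2 scale, the BEL/Pao element DIVER by 0.79, STALKER2 of the mdg1 group by 0.65, and INVADER4 and TABOR of the gypsy group by 0.63 and 0.62. Just under the threshold lay ZAM, an env-bearing gypsy-group element, at 0.50, STALKER3 at 0.44, STALKER4 at 0.39 and BLOOD at 0.34, the last 3 of the mdg1 group. STALKER3 is a consensus of 372 bp with 78 control reads, and its interval ran from 0.08 to 0.89.

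DOC6, a non-LTR element of the jockey clade, was the single transposon called lower, at 885 RPKM in the control and 443 in H1-KD, a log2 change of -0.99 (interval -1.04 to -0.96). Its level was 782 RPKM in Mael-KD, 874 in HP1a-KD and 1016 in Piwi-KD, so H1-KD was the lowest of the 5 columns. The next lowest changes were smaller. TLD2, an unclassified entry with 25 control reads and 23 in H1-KD, was at -0.56 with an interval that included 0 (-1.56 to 0.20). The DNA transposons MARINER2 and HOBO were both at -0.41, and the non-LTR elements BAGGINS1, G, DOC and G2 lay between -0.39 and -0.33.

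Grouped by kind, all 12 called higher were among the 55 kept LTR elements, and 0 of the 41 other transposons reached 1.5-fold higher, the highest of these being the DNA transposon PROTOP_B at 0.32. The median log2 change was 0.01 over the LTR elements, of which 28 were above 0, and -0.20 over the others, of which 8 were above 0. In the mdg1 group every kept member was above 0: its 7 members ran from 0.13 (DM412) to 0.97 (MDG1), with a median of 0.39 and 2 called higher, 28.6% against 12.5% of all 96. In the gypsy group 7 of 34 kept members (20.6%) were called higher, close to the share over LTR elements as a whole (12 of 55). The median of the gypsy group was -0.03, or 0.05 relative to the median transposon. Its lowest member, IDEFIX, was at -0.33. The mdg3 group was split, with MDG3 at 2.95 beside MICROPIA at -0.16 and BLASTOPIA at -0.20.

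Of the other LTR groups, the 7 BEL/Pao elements had a median of -0.14, with DIVER the single one above 0 and ROO the lowest at -0.31. The 4 kept copia-group elements had a median of 0.10, from COPIA2 at -0.18 to COPIA at 1.44, with DM1731 second at 0.18.

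Non-LTR elements were for the most part lower. Of 20 kept members of the jockey and I clades, 18 were below 0, none was called higher and DOC6 was called lower, with a median of -0.24 and G5 the highest at 0.15. The R1 and RT1 list holds non-LTR elements, some of which insert into ribosomal DNA. Its 4 kept members (R1, R2, DMRT1A and DMRT1B) were all below 0, from -0.31 (DMRT1B) to -0.20 (DMRT1A). The telomeric elements, which maintain the chromosome ends of flies, were close to 0, with a median of -0.01 that became 0.07 relative to the median transposon: HETA changed by 0.14, TART_B1 by -0.01 and TART by -0.15. Among 11 kept DNA transposons none was called, and they ran from -0.41 (MARINER2) to 0.32 (PROTOP_B), with a median of -0.14. The single kept Helitron-type entry, DNAREP1, was at -0.09, and the unclassified M4DM was at -0.20.

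**Figure D2:**
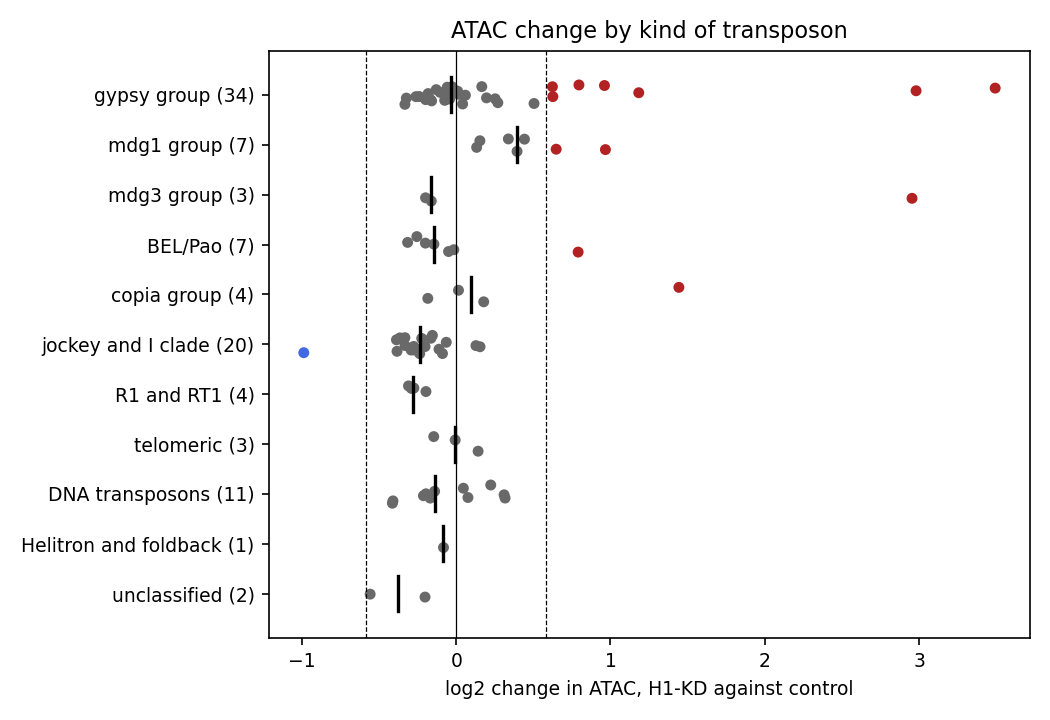
Log2 change in ATAC between H1-KD and control for the 96 kept transposons (x axis), by kind of transposon with the number kept in parentheses (y axis). Points are transposons, spread vertically at random; thick bars are medians and dashed lines mark 1.5-fold, past which 12 LTR elements lie on the right and DOC6 on the left.

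Piwi targets of these cells were taken as a list of 15 LTR elements commonly named as such, of which all but TIRANT were kept. Of the 14, 6 were called higher (DM297, GYPSY, MDG1, QUASIMODO, STALKER2 and TABOR) and none lower. Called higher were 12 of the 55 kept LTR elements, the closer background, and 12.5% of all kept transposons. The median log2 change of the 14 was 0.45, against 0.01 over the kept LTR elements and -0.08 over all 96. Of the 14, 11 were above 0. The list was chosen with earlier results of these data known. The list was not uniform. DM412 stood at 148 RPKM in the control and 163 in H1-KD, GYPSY5 at 21.2 and 22.0, and DM176 at 145 and 139. GTWIN stood at 29.0 and 27.7 RPKM, while it reached 235 in Piwi-KD. IDEFIX was lower, at 103 RPKM in the control and 80.8 in H1-KD. The intervals of GYPSY5, DM176 and GTWIN included 0.

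The remaining 6 called higher (Gypsy2, MDG3, COPIA, HMSBEAGLE, DIVER and INVADER4) were not on that list. In bulk cells, more open copies in each cell and more cells with open copies cannot be told apart.

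Transposons took 11.2% of the control ATAC reads (Wilson 95% interval 11.17 to 11.24) and 15.4% of those in H1-KD (15.39 to 15.46), a difference of 4.22 percentage points. The reads that made up this difference lay on few families. Expressed as RPM (reads for every 1000000 in the library, irrespective of consensus length), transposons gained a net 42209, the sum of 50849 over 44 transposons that gained and -8640 over 83 that lost. The 12 called higher gained 42098 RPM, 99.7% of the net, and all others together 111 RPM. The 12 were picked for rising in these same columns, so their large part of the gain follows from the rule. The number that lost and the near cancelling of the others depend on scaling to the whole library. Relative to reads outside the transposons every log2 change is 0.07 higher.

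DM297 went from 1219 to 14124 RPM, 30.6% of the net gain, and MDG3 from 1315 to 10395, 21.5%. Gypsy1, a gypsy-group element, had the most ATAC reads of any transposon in the control. It gained 6600 RPM, from 34477 to 41077 and 15.6% of the net, although its log2 change was 0.25. COPIA added 14.8%, GYPSY 13.4% and Gypsy2 8.18%, and these 6 families together came to 104% of the net gain. The largest losses were those of DOC6 (-1865 RPM), R1 (-1003), the BEL/Pao element ROO (-912) and FW (-768), a non-LTR element of the jockey clade. R1 and FW, with DOC6 and Gypsy1, were also high in the control, at 1076 and 1134 RPKM, and had log2 changes of -0.27 and -0.22. Without Gypsy1 the shares were 7.75% and 11.3%, a difference of 3.56 points.

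**Figure D3:**
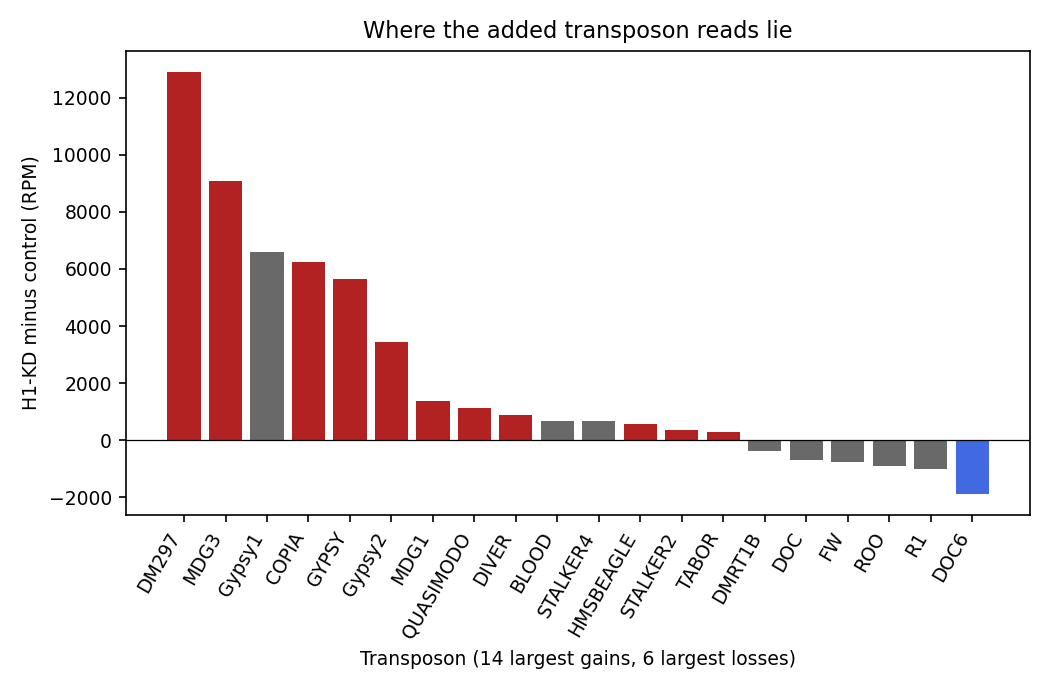
Difference in RPM, H1-KD minus control (y axis) for the 14 transposons with the largest gains and the 6 with the largest losses (x axis). Bars start at 0; red bars are transposons at least 1.5-fold higher, the blue bar is DOC6 and grey bars changed by less than 1.5-fold, among them Gypsy1 with a gain of 6600.

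The other knockdowns share the control column with H1-KD, so their values are given side by side. Against control, 11 transposons (11.5%) were called higher without Piwi, 30 (31.2%) without HP1a and 8 (8.33%) without Mael, and transposons took 25.6%, 19.1% and 20.7% of ATAC reads. DM297 stood at 12132 RPKM in Piwi-KD, 11981 in Mael-KD and 1489 in HP1a-KD, against 2146 in H1-KD. GYPSY stood at 6848, 2917 and 1690 RPKM, against 1437 in H1-KD. Both were thus more accessible without Piwi or Mael than without H1. Without HP1a, GYPSY was near its H1-KD level, while for DM297 H1-KD lay 0.53 above HP1a-KD on the log2 scale.

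MDG3 followed another order, with 332 RPKM in Piwi-KD, 832 in HP1a-KD, 668 in Mael-KD and 1979 in H1-KD. COPIA and INVADER4 were highest in HP1a-KD, at 4265 and 370 RPKM, against 2017 and 188 in H1-KD. MDG1 was similar in all 4 knockdowns, from 384 RPKM in Mael-KD to 452 in HP1a-KD.

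Set directly against each other, without the control column, H1-KD was at least 1.5-fold higher than Piwi-KD for 11 of 96 transposons (11.5%) and lower for 9 (9.38%), with a median of 0.20 over the 96. Relative to that median the counts were 5 and 11. Of the 12 called higher against control, MDG3 (2.55 on the log2 scale), HMSBEAGLE (1.06), DIVER (0.79) and INVADER4 (0.73) were higher than in Piwi-KD, and DM297 (-2.50), Gypsy2 (-2.33), GYPSY (-2.25) and QUASIMODO (-1.37) were lower. Relative to the median, INVADER4 was no longer past 1.5-fold (0.53) and DIVER was just past it (0.59). Against HP1a-KD, H1-KD was higher for 2 of 96 (2.08%), MDG3 at 1.24 and Gypsy2 at 0.83, and lower for 24 (25%). Those 24 included QUASIMODO at -1.52, COPIA at -1.08 and INVADER4 at -0.96, and the median over all 96 was -0.31. Relative to it the counts were 6 higher and 13 lower, with DM297 (0.84) and HMSBEAGLE (0.60) among the higher. Against Mael-KD, H1-KD was higher for 6 (6.25%), among them MDG3 at 1.56, Gypsy2 at 1.40 and HMSBEAGLE at 0.95. It was lower for 3 (3.12%): DM297 at -2.48, GYPSY at -1.02 and DOC6 at -0.81. The median was 0.16, relative to which the counts were 3 (MDG3, Gypsy2 and HMSBEAGLE) and 3. DOC6 was lower in H1-KD than in each of the other knockdowns, with log2 differences of -1.19 to -0.81, or -1.39 to -0.66 relative to the medians.

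Among the 5 columns, H1-KD held the highest value for 7 of 96 transposons, HP1a-KD for 55, control for 26, Piwi-KD for 7 and Mael-KD for 1. For MDG3 the H1-KD level was 2.38 times the next highest. For the other 6 it was 1.34 times (STALKER3), 1.22 (HMSBEAGLE), 1.16 (DIVER), 1.13 (INVADER3), 1.11 (HETA) and 1.04 (G5).

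**Figure D4:**
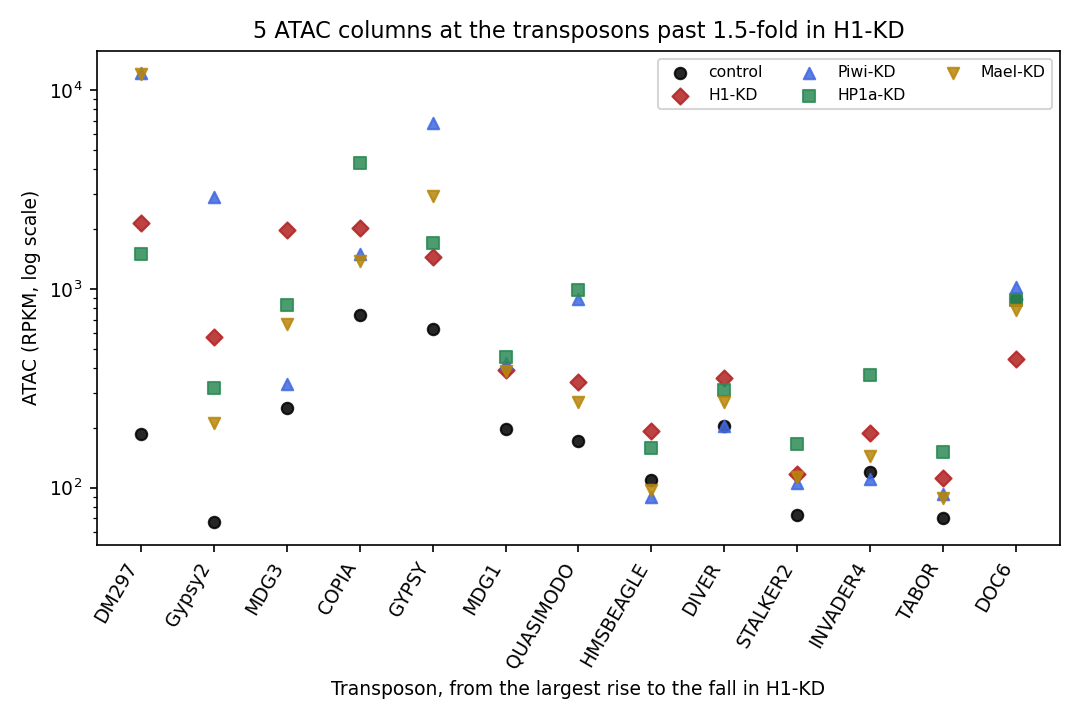
ATAC level in RPKM (y axis, log scale) in each of the 5 columns for the 12 transposons called higher in H1-KD and for DOC6 (x axis). Each marker is 1 column; DM297, Gypsy2 and GYPSY are highest in Piwi-KD, MDG3 is highest in H1-KD at 1979, and DOC6 is lowest in H1-KD.

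Poly(A)+ RNA from H1-KD and control cells, 1 sample each, gave transposon RNA levels to set beside accessibility. RNA was higher for far more families than ATAC was. At 2-fold, 55 of the 96 transposons (57.3%) had higher RNA in H1-KD and 0 had lower, with a median log2 RNA change of 1.19 (0.553 RPKM added). Of the 12 called higher in ATAC, 8 (66.7%) had RNA at least 2-fold higher, against 57.3% of all 96, and of the 55 with higher RNA, 8 (14.5%) were called higher in ATAC, against 12.5% of all. At 2-fold both shares lay close to the background. Without the added constant 9 of the 12 had RNA at least 2-fold higher, as did 62 of the 94 transposons with control RNA above 0. STALKER3 and G stood at 0 RPKM of RNA in the control, so they had no such ratio and were left out of the 62, although both were among the 55. Of the 55, 34 (61.8%) had an ATAC change below 0, close to the 62.5% of all 96. The median ATAC change of the 55 was -0.10, against -0.08 over all 96.

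MDG1 had the largest RNA difference, from 33.8 to 1742 RPKM (log2 change 5.67), beside its ATAC change of 0.97. DM297 RNA went from 8.18 to 71.6 RPKM (3.05), MDG3 RNA from 69.7 to 436 (2.64) and GYPSY RNA from 36.2 to 524 (3.83). In these families RNA and ATAC were both higher. BATUMI, a BEL/Pao element, had the second largest RNA difference, from 2.81 to 71.6 RPKM (4.42), with an ATAC change of -0.20. TRANSIB2, a DNA transposon, went from 0.634 to 15.3 RPKM of RNA (3.74) with an ATAC change of -0.21. For ZAM and INVADER3 the RNA changes were 4.11 and 3.91, and the ATAC changes 0.50 and 0.27.

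The converse also occurred, since 4 of the 12 had RNA changes under 2-fold once 0.553 RPKM was added, one of them only for that reason. Gypsy2, with the second largest ATAC change, went from 2.44 to 5.07 RPKM of RNA (0.91), a ratio of 2.08 without the added constant. COPIA, whose RNA was the most abundant of the 96 at 23623 RPKM in the control, went to 42528 (0.85). HMSBEAGLE RNA stood at 4.75 and 5.63 RPKM, and DIVER RNA at 234 and 187, a log2 change of -0.32. DOC6 RNA stood at 18.3 and 20.7 RPKM. At 8-fold, 11 transposons (11.5%) had higher RNA, of which 4 (36.4%) were called higher in ATAC, against 12.5% of all 96, and 3 (27.3%) had an ATAC change below 0, against 62.5% of all.

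**Figure D5:**
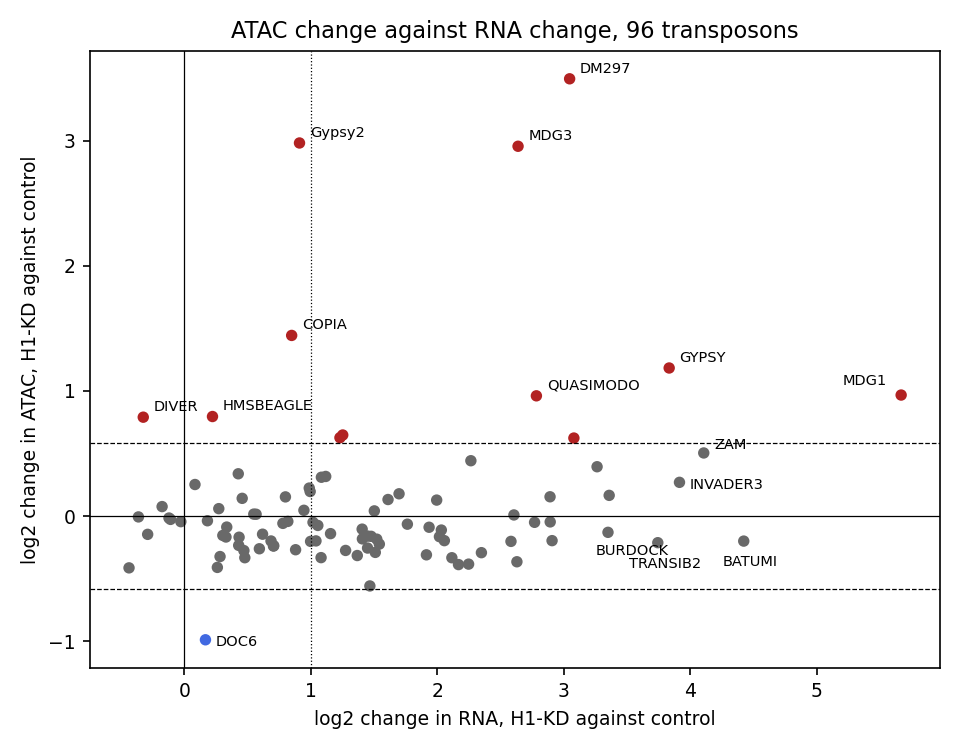
Log2 change in ATAC (y axis) against log2 change in RNA (x axis), both H1-KD against control, for the 96 kept transposons. Dashed lines mark 1.5-fold in ATAC and the dotted line 2-fold in RNA; red points are called higher in ATAC, and most transposons to the right of the dotted line sit near or under 0.

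ChIP input, chromatin DNA without precipitation, gave a check on the amount of transposon DNA. For the 12 called higher, the input of H1-KD differed from that of the control by -0.01 to 0.12 on the log2 scale, against ATAC changes of 0.62 to 3.49. DM297 stood at 244 and 265 RPKM of input, and DOC6 at 341 and 338. In the control the 12 were not unusual in ATAC relative to input, with a median ratio of 1.07 against 1.17 for the other 84. That ratio went from 0.768 to 7.98 for DM297, from 1.46 to 11.2 for Gypsy2 and from 1.29 to 9.49 for MDG3.

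H1 itself, measured in 3 control ChIP libraries over input, was not highest on the transposons called higher in ATAC. The 12 had a median log2 H1 over input of 0.20, against 0.27 for the other 84, with COPIA lowest at -0.13 ± 0.09 (SD, n = 3) and INVADER4 highest at 0.34 ± 0.03. DM297 was at 0.14 ± 0.08 and MDG3 at 0.17 ± 0.10. The 6 transposons with most H1 (Bica, MAX, INVADER6, DM1731, DOC2 and G6, from 0.43 to 0.40) had ATAC changes between -0.24 and 0.18.

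H3K9me3, the mark of silent heterochromatin, was measured in 1 control and 1 H1-KD library. In the control the 12 had a median H3K9me3 over input of 3.55, against 2.60 for the other 84, and ran from 1.58 (DIVER) to 6.73 (GYPSY). GYPSY and DM297 ranked first and second of the 96. The next 4, the non-LTR elements G6, R1 and DMRT1B and the LTR element GTWIN, had ATAC changes of -0.31 to -0.06. The 12 were not uniform, since INVADER4 (2.49), MDG3 (2.11), COPIA (2.09) and DIVER lay below the median of the others.

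H3K9me3 over input was at least 1.5-fold lower in H1-KD for 6 of 96 transposons (6.25%) and higher for 2 (2.08%). The 6 were BLOOD (-1.21 on the log2 scale), STALKER2 (-0.96), MDG1 (-0.71), DOC6 (-0.64), the DNA transposon BARI (-0.64) and Gypsy1 (-0.62). Of these, STALKER2 and MDG1 were called higher in ATAC and DOC6 lower. Among the 12, 8 had less H3K9me3 in H1-KD, as did 42 of the other 84. The median log2 change was -0.24 over the 12 and 0.00 over the others. The mark changed unequally among the families with the largest ATAC changes: H3K9me3 over input went from 4.69 to 3.87 for DM297, from 3.93 to 2.67 for Gypsy2, from 2.11 to 2.40 for MDG3 and from 6.73 to 6.80 for GYPSY.

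HP1a over input, the third chromatin measure, had a median of 1.88 over the 12 in the control, against 1.80 for the other 84. Its log2 change in H1-KD had a median of 0.01 over the 12 and 0.12 over the others, with STALKER2 lowest of the 12 at -0.62 and MDG3 highest at 0.25.

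Small RNA bound to Piwi, in RPM from 1 control and 1 H1-KD library, was abundant for most of the families called higher in ATAC. The median over the 12 was 8323 RPM in the control, against 66.5 RPM over the other 84. GYPSY had 23804 RPM, MDG1 16323, DM297 11013 and Gypsy2 10325, while COPIA had 191, DIVER 37.2 and INVADER4 33.3. Abundant small RNA did not go with higher accessibility in every family. GTWIN had the most of all transposons, at 44194 RPM, and DM412 the second most, at 29916 RPM, and neither was called in ATAC. In H1-KD, 9 of the 12 had less Piwi-bound small RNA, with a median log2 change of -0.44 (8.10 RPM added), from -0.77 (TABOR) to 0.84 (DIVER). Over the other 84, most of which had far less small RNA in the control, the median was 0.51. Less was found for 27 of these, and for 36 of all 96. GTWIN, DM412, DOC and IDEFIX, the uncalled families with most small RNA, changed by 0.18, -0.02, -0.27 and -0.26. The next uncalled families, down to the control median of the 12, mostly fell about as much as the 12 did. They were GYPSY4 (-0.43), STALKER4 (0.02), GYPSY5 (-0.31), ROVER (-0.46), I (-0.47), BLOOD (-0.62) and DM176 (-0.50). Lower small RNA was thus not particular to the 12. DM297 went from 11013 to 9674 RPM and MDG3 from 2190 to 2048.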

How the data were processed

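Per the submitters' processing notes, ATAC reads were processed with cutadapt and MACS2 on build dm3, RNA with Bowtie2 2.0.6, TopHat2 2.0.7 and Cufflinks 2.1.1, and ChIP, input and small RNA with Bowtie 1.0.1. The role of each tool, any shift of ATAC reads for the transposase, and whether a column pools replicates are not given in the sources used here. The deposited ATAC, RNA, ChIP and input values are RPKM and the deposited small RNA values RPM. Both units were deduced from the values: whole lengths (186 to 14477 bp, found for 127 transposons) and whole read totals gave whole reads, within 0.05, for 3352 of 3352 nonzero RPKM values. A factor common to reads and totals would not be seen.

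Changes, intervals and lists were computed in Python 3.11.15 with pandas 2.3.3 and scipy 1.17.1. ChIP values were divided by their matching input (same condition and number) after adding 0.1 of each table's median nonzero value (4.45 to 13.2 RPKM). On simulated data for this comparison (96 transposons), each changed transposon was set 2-fold higher or lower, with counting noise only. There, 16 of 16 changed transposons were called, 0 of 80 unchanged ones were, and 92.7% of intervals held the true change. Changes between 1.5-fold and 2-fold, where most of the 12 called higher lay, were not simulated. How the calls would hold under spread between replicates, which the ATAC table does not give, was not tested.

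Transposons named were the 20 largest rises and 8 largest falls, the Piwi targets, the ends of each list, the 6 with the largest RNA rise, most H1 or most H3K9me3, and the 4 with most control ATAC reads, and others where a count or contrast of few members called for it. Members, lists and rules were chosen with earlier results of these data known. Alternatives were another or no pseudocount, other filters, scalings and thresholds, and division by input.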

Additional observations from a re-analysis of the deposited data

How the results depend on the processing

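The 12 transposons called higher remained called with no pseudocount, with no or another filter and after rescaling to reads outside the transposons, which adds 0.07 to every log2 change. A pseudocount of 0.5 of the median left 9 of them, without STALKER2, INVADER4 and TABOR. Centring on the median transposon added ZAM. Division by input kept 11, without INVADER4, and added S and GYPSY6A. At 2-fold the count was 5, and at a threshold of 0.32 on the log2 scale 16. The count called lower was 1, and became 2 with no pseudocount (TLD2 added), 2 with no filter (TLD1 added), 2 after division by input (HOBO added), 0 at 2-fold and 11 at the threshold of 0.32. The difference in transposon share was 3.56 points without Gypsy1. The median log2 change ran from -0.12 to 0.00 over these settings. Of 517 further values for named transposons and lists, 85 moved by more than counting error or the list's tolerance and none that was called changed sign. Those that did lay within 0.06 of 0: DM176, GTWIN, MAX and the medians of the gypsy group and the telomeric elements after centring or rescaling, and GTWIN and INVADER6 after division by input. Centred counts against the other knockdowns, RNA counts without a pseudocount and the rescaled split about 0 were added after seeing the data. No paired analysis was possible because the table holds 1 column per condition. The depth limits TLD2, STALKER3 and others with few reads, whose intervals were up to 1.76 wide on the log2 scale.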
